A study of Mus musculus with 35 samples.

Results

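The 9 genes described here are Zp1, Zp2, Zp3, Astl, Gdf9, Bmp15, Oosp1, Oosp2 and Oosp3, which encode the coat of the mouse egg, a protease that modifies it, and proteins that the oocyte secretes. They were chosen by name and found by their Ensembl identifiers in GENCODE M21 (GRCm38), 9 of the 54838 gene rows of each count file. RNA was counted in 35 single late 2-cell embryos of the F1 cross C57BL/6JxCBA/H, by Smart-seq+5', a full-length method on polyA RNA that also marks reads from transcript 5' ends. All embryos were injected as zygotes 24 h after hCG, grown in KSOM and collected at 48 h. The 9 controls received a scrambled antisense oligonucleotide (ASO). The 7 SRF-LOF embryos received mRNA of a dominant negative SRF, the 9 DUX-LOF embryos an ASO against DUX, and the 10 double-LOF embryos both. SRF-LOF embryos received mRNA and no ASO, no group received a control mRNA, and no batch, litter or injection day is labelled. No gene was deleted in any group, and nothing in the labels ties embryos to a mother, so each p-value reflects how much single embryos differ. SRF binds CArG boxes beside actin and growth response genes, and DUX, of the double homeobox family, is known for turning on genes of the 2-cell stage.

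The mouse zona pellucida is a coat of the glycoproteins ZP1, ZP2 and ZP3, which the growing oocyte makes and secretes. Oocyte genes of this kind are transcribed while the oocyte grows and fall silent before ovulation, and their mRNAs are known to be cleared in steps during maturation and while the embryo's own genome is activated. The embryos were collected at 1 time only, so the values below are levels left at 48 h and not rates of decay. Since polyA RNA was captured, a lost RNA and an RNA with a shorter tail cannot be told apart, and neither can fewer cells and less RNA per cell.

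The files give 2 read classes, internal reads along the transcript and reads at its 5' end. Each embryo had 220921 to 2039475 internal and 505157 to 2343900 5' gene counts. Levels are in CPM of internal reads, that is counts relative to an embryo's gene total after TMM scaling (trimmed mean of M values), unless 5' reads are named. Srf reads, which include the injected mRNA, lay at 11.7 to 51.2 CPM in control and DUX-LOF embryos and at 97.0 to 1660 CPM in SRF-LOF and double-LOF embryos. Duxf3, the Dux gene in this annotation, lay at 0 to 23.8 CPM in controls and 0 to 8.12 CPM in 8 DUX-LOF embryos. In the library labelled DUX-LOF 10 it lay at 117 CPM, against its label. Over the 8 late 2-cell genes described below, however, that library summed to 198.7 CPM, the lowest of its group. This lay below all controls (494.8 to 6143 CPM), as its label has it. In the 10 double-LOF embryos Duxf3 lay at 0 to 34.3 CPM (median 7.90), no lower than in controls (median 7.96). This read thus does not bear out the DUX ASO label of that group. Of the 8 late 2-cell genes, however, 4 were called lower there than in controls, where 9.92% of all genes were lower. In SRF-LOF embryos Duxf3 lay at 4.27 to 41.5 CPM. SRF-LOF 3 and SRF-LOF 8 had the lowest Srf levels of their group (181 and 97.0 CPM) and stood at -37.2 and -11.9 on the first principal component of all genes tested, where the other 5 SRF-LOF embryos lay between 106.0 and 150.5 and the controls between -85.97 and 111.75. Results that rest on these 3 libraries are given with and without them. SRF-LOF 3 and SRF-LOF 8 were set apart partly by expression itself, though their Srf levels lay above every control. Within SRF-LOF Zp3 ran against that component (r = -0.975), and Bmp15 and Oosp2 ran with it (0.891 and 0.913). Calls of these genes made without the 2 embryos are thus no separate support. As for other cells, 9 cumulus and granulosa markers were summed per embryo. They gave 0 to 27.2 CPM per control, 3.91 to 51.2 per SRF-LOF, 1.75 to 29.4 per DUX-LOF and 0 to 19.6 per double-LOF embryo. The highest sum was that of SRF-LOF 3. Most of these reads were of Tnfaip6 and Cyp19a1, which were counted in every group. Their means were 6.41 and 4.26 CPM for controls and 8.18 and 11.15 CPM for SRF-LOF. For DUX-LOF they were 9.09 and 2.99 CPM, and for double-LOF 4.48 and 3.83 CPM. Amh had 18 counts over the DUX-LOF and 14 over the double-LOF embryos, and 0 over the others. Fshr, the FSH receptor of granulosa cells, had no count in any group. The 4 sperm markers summed to at most 18.5 CPM of internal reads in an embryo and none passed the filter there. In 5' reads Prm2, a protamine, was tested and was lower in double-LOF than in SRF-LOF (-2.26 ± 0.83, adjusted p = 0.0400). Of 4 blood markers Ptprc and Hbb-bs were at 0 but for 1 Ptprc count, and Cd68, a lysosomal protein of macrophages, rose by 1.93 ± 0.54 on the log2 scale in DUX-LOF (edgeR's quasi-likelihood test, adjusted p = 0.0105), though with ERCC scaling it was not called. The fourth, Hba-a1, an alpha globin, had a mean of 44.1 CPM in controls and 34.9 CPM in DUX-LOF and did not pass (-0.34 ± 0.62, adjusted p = 0.764).

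The RefSeq promoter table (GRCm38.p6) held start sites of 5 of the 9 genes. The sequences just before 4 of them are shown, that of Zp3, which had the largest fold changes against control, beside those of 3 genes with other patterns. Each runs 5′ to 3′ on the gene's strand and ends before the first start that RefSeq or GENCODE annotates. Capitals mark E-boxes (CANNTG, its own reverse complement), the motif through which the oocyte factor FIGLA is known to act on mouse Zp genes.
Zp3, chr5:135979855-135980098, plus strand: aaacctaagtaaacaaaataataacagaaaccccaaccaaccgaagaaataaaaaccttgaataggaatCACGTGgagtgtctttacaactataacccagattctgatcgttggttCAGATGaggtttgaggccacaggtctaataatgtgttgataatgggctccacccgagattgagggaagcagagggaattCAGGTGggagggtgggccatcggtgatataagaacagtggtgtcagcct
Bmp15, chrX:6320725-6320974, minus strand: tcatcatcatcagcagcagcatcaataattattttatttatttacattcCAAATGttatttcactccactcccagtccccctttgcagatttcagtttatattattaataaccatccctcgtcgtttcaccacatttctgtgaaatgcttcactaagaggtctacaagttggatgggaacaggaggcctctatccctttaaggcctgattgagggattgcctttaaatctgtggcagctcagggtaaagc
Oosp1, chr19:11691151-11691301, minus strand: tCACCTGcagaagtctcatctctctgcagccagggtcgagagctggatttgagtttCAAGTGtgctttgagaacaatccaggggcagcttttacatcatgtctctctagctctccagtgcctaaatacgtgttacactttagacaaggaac
Oosp2, chr19:11660560-11660809, minus strand: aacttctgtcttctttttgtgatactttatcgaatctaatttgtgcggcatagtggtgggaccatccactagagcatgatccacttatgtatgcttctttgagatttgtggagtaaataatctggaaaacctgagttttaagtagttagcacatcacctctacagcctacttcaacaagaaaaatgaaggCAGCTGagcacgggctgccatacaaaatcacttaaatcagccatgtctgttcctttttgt

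Zp3 held 3 E-boxes in its 244 bases, Oosp1 held 2 in 151 bases, and Bmp15 and Oosp2 held 1 each in 250 bases. An E-box is common: of 32851 promoter windows 65.6% held one in 244 bases, 49.5% in 151 bases and 66.2% in 250 bases. For Astl the table has 2 starts, with 0 E-boxes before the first and 3 before the second, which lies inside the gene. The NOBOX element (TAATTA or TAATTG, both strands), named for an oocyte homeodomain factor, was found in Bmp15 only of these 5 genes, and in 11.3% of all windows of 250 bases. A CArG box, the motif of SRF, was found in none of the 6 windows, and in 1.47% of all windows of 250 bases. These matches describe the letters of these windows only. Zp1, Zp2, Gdf9 and Oosp3 have no window here.

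In controls the 9 mRNAs spanned a wide range of levels. Per kb of exon, Oosp1 was highest at 1512 ± 477 CPM per kb (SD, n = 9). Oosp3 followed at 351 ± 126, Bmp15 at 215 ± 141, Gdf9 at 172 ± 74.2 and Zp3 at 111 ± 53.0 CPM per kb. Zp1 lay at 41.1 ± 14.2, Oosp2 at 32.9 ± 18.3, Zp2 at 26.8 ± 14.5 and Astl at 9.06 ± 4.11 CPM per kb. Oosp1 lay above Oosp3 in every control, with no overlap of their ranges, while all other neighbours in this order overlapped. All 9 genes passed the filter on low counts in both read classes, and the lowest count of any of them in an embryo was 2, in both classes.

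**Figure D1:**
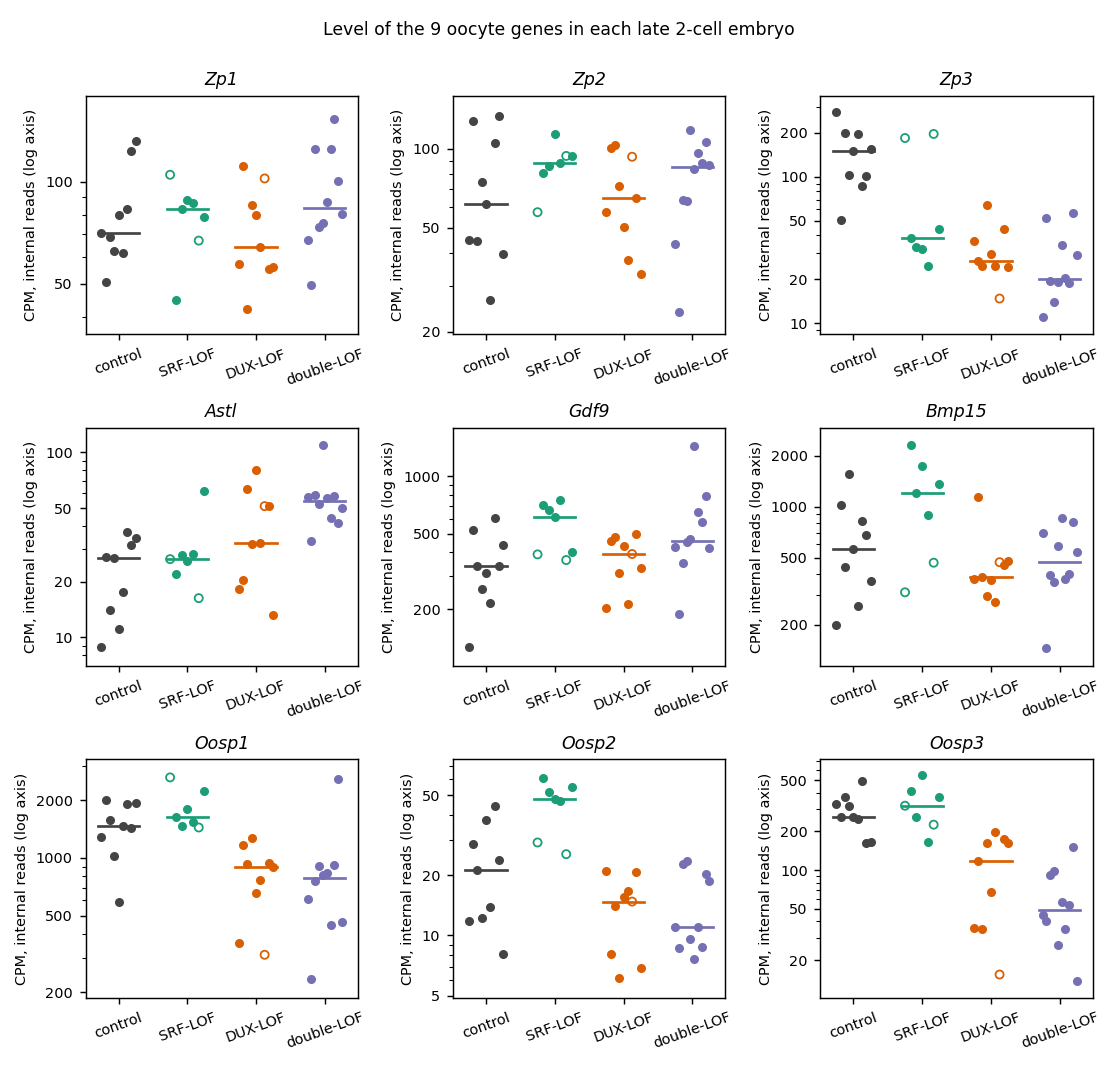
Level of each gene in each of the 35 embryos (points, CPM of internal reads, log axis, 1 panel per gene) with the group median as a line. Open circles are SRF-LOF 3, SRF-LOF 8 and DUX-LOF 10. In the Zp3 panel 8 of 9 DUX-LOF and 8 of 10 double-LOF embryos lie below all controls, and the SRF-LOF group falls into 2 high and 5 low embryos.

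Zp3 and Oosp3 were lower in both groups that received the DUX ASO, while Zp1 and Zp2 passed the test in none of the 6 comparisons. Astl was higher in double-LOF embryos. The tests are edgeR's quasi-likelihood test on internal counts with Benjamini-Hochberg adjustment over 11940 genes, at an adjusted p under 0.05, with log2 fold changes ± their standard error. In DUX-LOF against control 3 of the 9 genes passed, all lower (Zp3, Oosp3 and Oosp1), where 17.2% of all genes tested passed, 8.87% higher and 8.35% lower. In double-LOF against control 3 passed, with Zp3 and Oosp3 lower and Astl higher, where 19.6% of all genes passed, 9.72% higher and 9.92% lower. The median log2 fold change of the 9 was -0.48 in DUX-LOF and -0.34 in double-LOF, beside -0.08 over all genes in each. Both comparisons use the same 9 controls. In 5' reads the same genes passed, where 18.0% and 21.7% of 11749 genes did.

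The zona genes parted ways. Zp3 (ENSMUSG00000004948.12, chromosome 5, 135980099 to 135988624, plus strand) encodes the zona protein long studied as the sperm receptor. Its lowest, median and highest levels were 50.7, 151 and 277 CPM in controls, 24.6, 38.1 and 197 in SRF-LOF, 14.8, 26.4 and 64.8 in DUX-LOF, and 11, 19.95 and 56.9 in double-LOF embryos. The DUX-LOF and double-LOF ranges overlapped that of the controls only through control 2, the lowest control, at 50.7 CPM. Control 2 also had the highest mean of the other maternal transcripts among the controls (8.68 on the log2 scale). The log2 fold change against control was -2.19 ± 0.41 in DUX-LOF (4.56-fold lower, adjusted p = 0.000241) and -2.41 ± 0.40 in double-LOF (5.31-fold lower, adjusted p = 4.47e-05). Both calls held under all 11 alternatives, with log2 fold changes of -2.22 to -1.75 and -2.53 to -1.91, and with each library left out in turn. In 5' reads the values were -2.18 ± 0.39 and -1.95 ± 0.37 (adjusted p = 0.000143 and 0.000202). Double-LOF and DUX-LOF did not differ beyond their spread (log2 fold change -0.22 ± 0.39, 95% interval -1.01 to 0.57, adjusted p = 0.939).

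In the SRF-LOF group Zp3 was split. SRF-LOF 3 and SRF-LOF 8 had 185 and 197 CPM, within the range of the controls, while the other 5 embryos had 24.6 to 44.3 CPM, below all controls. Over all 7 embryos the log2 fold change was -0.89 ± 0.42 and did not pass (adjusted p = 0.195). Without SRF-LOF 3, SRF-LOF 8 and DUX-LOF 10 it was -2.14 (adjusted p = 0.000337), in a fit in which 34.1% of all genes passed. Without SRF-LOF 3 alone it was -1.25 (adjusted p = 0.0462), and without SRF-LOF 8 alone the same to 2 decimals, with an adjusted p of 0.0512. SRF-LOF 3 and SRF-LOF 8 were set apart partly by expression, and leaving out the 2 embryos high in Zp3 favours a lower value in advance. Those 2 embryos also had less of the 46 other maternal oocyte transcripts listed for comparison (summed 39630 and 49730 CPM, against 71830 to 110800 in the other 5). These sums also lay within the range of the controls, 25840 to 72670 CPM. The part of this difference in the Zp3 values was not tested. In the same way double-LOF was below SRF-LOF with all embryos (log2 fold change -1.52 ± 0.41, adjusted p = 0.00547) but not without the 3 libraries (-0.25, adjusted p = 0.596).

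Zp1 (ENSMUSG00000024734.8, chromosome 19, 10914287 to 10920632, minus strand), which is known to crosslink the zona filaments, had medians of 64.1 to 83.9 CPM over the 4 groups, within an overall range of 42.1 to 153 CPM. Zp2 (ENSMUSG00000030911.7, chromosome 7, 120126772 to 120145291, minus strand), the zona protein cleaved after fertilization, had medians of 61.3 to 87.9 CPM within 23.8 to 133 CPM. The 4 groups overlapped for both genes. The 95% interval of the log2 fold change in double-LOF against control was -0.26 to 0.67 for Zp1 and -0.50 to 0.67 for Zp2, and in DUX-LOF -0.63 to 0.31 and -0.70 to 0.50.

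Astl (ENSMUSG00000050468.12, chromosome 2, 127338639 to 127357651, plus strand) encodes ovastacin, the cortical granule protease that cleaves ZP2. Its lowest, median and highest levels were 8.82, 26.7 and 37.0 CPM in controls, 16.3, 26.5 and 62.0 in SRF-LOF, 13.1, 32.5 and 80.0 in DUX-LOF, and 33.1, 54.8 and 109 in double-LOF embryos. Of the 10 double-LOF embryos 9 lay above all controls, as did 4 of 9 DUX-LOF embryos and 1 of 7 SRF-LOF embryos. The log2 fold change in double-LOF was 1.29 ± 0.33 (2.44-fold higher, adjusted p = 0.00466). Those of DUX-LOF, 0.80 ± 0.33, and SRF-LOF, 0.37 ± 0.35, did not pass (adjusted p = 0.0908 and 0.500). The double-LOF call held under all 11 alternatives (1.25 to 1.97) and in 5' reads (1.75 ± 0.42, adjusted p = 0.00243). These are low counts, 12 to 113 internal counts per embryo.

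**Figure D2:**
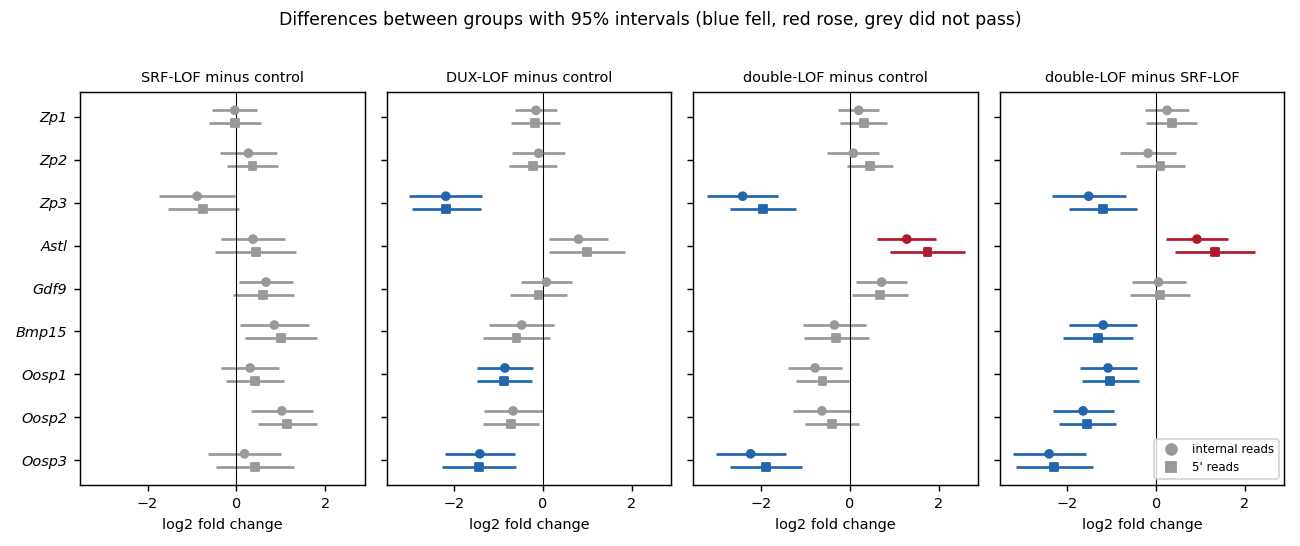
Log2 fold change of each gene in 4 comparisons, with 95% intervals, from internal reads (circles) and 5' reads (squares); blue fell, red rose and grey did not pass. Both read classes call the same genes in each comparison shown, with 0 in the first, 3 in each of the next 2 and 6 in double-LOF minus SRF-LOF.

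Gdf9 and Bmp15 encode ligands of the TGF-beta family through which the oocyte is known to act on the granulosa cells around it. Gdf9 (ENSMUSG00000018238.6, chromosome 11, 53431023 to 53437904, plus strand) had lowest, median and highest levels of 126, 337 and 607 CPM in controls, 363, 611 and 755 in SRF-LOF, 203, 390 and 495 in DUX-LOF, and 189, 459 and 1452 in double-LOF embryos. Every SRF-LOF embryo lay above the control median and 4 of 7 above all controls, and no group was free of overlap with another. Against control the log2 fold changes of double-LOF, 0.72 ± 0.28, SRF-LOF, 0.67 ± 0.30, and DUX-LOF, 0.07 ± 0.29, did not pass (adjusted p = 0.0672, 0.180 and 0.891). The double-LOF value passed with DESeq2 (0.80, adjusted p = 0.0304) and did not pass without the shallow library double-LOF 6, which held the highest level (0.46, adjusted p = 0.228).

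Bmp15 (ENSMUSG00000023279.7, chromosome X, 6314107 to 6320721, minus strand) varied more than Gdf9 among the controls, with a coefficient of variation of 65.9% against 43.1%. Its lowest, median and highest levels were 201, 559 and 1567 CPM in controls, 312, 1205 and 2321 in SRF-LOF, 272, 384 and 1137 in DUX-LOF, and 146, 470 and 859 in double-LOF embryos. Of the SRF-LOF embryos 5 of 7 lay above the highest double-LOF embryo, and the 2 below it were SRF-LOF 3 and SRF-LOF 8. Against control the log2 fold change of 0.85 ± 0.39 in SRF-LOF did not pass (adjusted p = 0.177), nor did -0.48 ± 0.36 in DUX-LOF or -0.34 ± 0.35 in double-LOF (adjusted p = 0.397 and 0.548). Without SRF-LOF 3, SRF-LOF 8 and DUX-LOF 10 the SRF-LOF value was 1.14 and passed (adjusted p = 0.0193). Double-LOF was lower than SRF-LOF by a log2 fold change of -1.20 ± 0.38 (adjusted p = 0.0161), or 0.15 when scaled to the other maternal transcripts. It did not pass without SRF-LOF 4 or without SRF-LOF 6 (highest adjusted p = 0.0704).

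The 3 Oosp genes, named for secretion from the oocyte, lie side by side on chromosome 19. Oosp1 (ENSMUSG00000041857.10, 11667460 to 11691150, minus strand) was the most abundant, with lowest, median and highest levels of 587, 1473 and 2007 CPM in controls, 1439, 1634 and 2624 in SRF-LOF, 313, 893 and 1275 in DUX-LOF, and 235, 787 and 2578 in double-LOF embryos. All 9 DUX-LOF embryos lay below the control median, but only 2 below every control. In double-LOF the highest embryo lay above every control while the other 9 lay below the control median. The DUX-LOF fall of -0.86 ± 0.31 (1.81-fold lower) sat at the threshold (adjusted p = 0.0494) and held under 4 of 11 alternatives and in 8 of 35 fits with 1 library left out; it did not hold without the 3 doubted libraries. In double-LOF the log2 fold change was -0.78 ± 0.30 (adjusted p = 0.0615). Without double-LOF 9 it was -1.14 (adjusted p = 0.00225).

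Oosp2 (ENSMUSG00000055895.6, 11647279 to 11660559, minus strand) separated the groups with and without the DUX ASO among embryos given SRF mRNA. Its lowest, median and highest levels were 8.11, 21.1 and 44.0 CPM in controls, 25.4, 47.8 and 61.0 in SRF-LOF, 6.11, 14.8 and 20.96 in DUX-LOF, and 7.60, 11.03 and 23.4 in double-LOF embryos. All 10 double-LOF embryos lay below all 7 SRF-LOF embryos, in internal and in 5' reads (log2 fold change -1.65 ± 0.34, adjusted p = 0.00045). In this comparison 27.8% of all genes passed and 27 of the 45 other maternal transcripts tested fell, and the share of all genes without overlap was not counted. Scaled to the other maternal transcripts Oosp2 did not pass, while on the ERCC scale it did. Against control SRF-LOF embryos had a log2 fold change of 1.02 ± 0.34 (adjusted p = 0.0883), with 5 of 7 embryos above all controls. The values of DUX-LOF, -0.68 ± 0.33, and double-LOF, -0.63 ± 0.32, did not pass either (adjusted p = 0.158 and 0.173). The SRF-LOF value passed without SRF-LOF 3 or without SRF-LOF 8 (lowest adjusted p = 0.0357), without the 3 libraries together (1.19, adjusted p = 0.0135) and with DESeq2 (0.99, adjusted p = 0.0409). Counts of this gene were low, with a minimum of 2 internal counts in an embryo.

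Oosp3 (ENSMUSG00000055933.13, 11697055 to 11711874, plus strand) was lower in both groups with the DUX ASO, with values like those of controls in SRF-LOF. Its lowest, median and highest levels were 162, 260 and 494 CPM in controls, 164, 316 and 547 in SRF-LOF, 15.5, 117 and 198 in DUX-LOF, and 13.7, 49.3 and 152 in double-LOF embryos. All 10 double-LOF embryos lay below every control, and 6 of 9 DUX-LOF embryos did. In double-LOF against control 19.6% of all genes passed, and the share of all genes without overlap was not counted. The log2 fold change was -2.23 ± 0.39 in double-LOF (4.70-fold lower, adjusted p = 9.11e-05) and -1.42 ± 0.39 in DUX-LOF (2.68-fold lower, adjusted p = 0.00946). In SRF-LOF it was 0.18 ± 0.41 and did not pass (adjusted p = 0.796). The double-LOF call held under all 11 alternatives. The DUX-LOF call did not hold with scaling to ERCC spike-ins (-1.24, adjusted p = 0.153) or to the other maternal transcripts (-0.72, adjusted p = 0.214). Oosp3 overlaps in its exons the pseudogene Gm19224 on the other strand (2434 internal counts over all embryos), and since the use of strand is not given in the sources used here, reads of the 2 cannot be told apart.

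In SRF-LOF against control edgeR called 0 of the 9 genes, where 1.78% of all genes passed. At an unadjusted p under 0.05 there were 4 (Zp3 lower, and Gdf9, Bmp15 and Oosp2 higher), against 23.6% of all genes, and DESeq2 called 1, Oosp2, against 7.31%. In 5' reads edgeR called 0, where 2.15% of all genes passed. Without the 3 libraries edgeR called 3, with Zp3 lower and Bmp15 and Oosp2 higher, a share close to that of all genes in the same fit (34.1%). In double-LOF against DUX-LOF edgeR and DESeq2 called 0, with 2 at an unadjusted p under 0.05 (Gdf9 higher and Oosp3 lower). Of all genes 0.00838% passed with either tool and 6.25% at an unadjusted p under 0.05, and 0.0170% passed in 5' reads. Log2 fold changes of the 9 genes in that comparison ran from -0.81 to 0.64.

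Double-LOF against SRF-LOF asks what the DUX ASO adds to the SRF mRNA. Since SRF-LOF embryos received no ASO, the DUX ASO and the presence of any ASO cannot be told apart here. The interaction given below shares this limit. Of the 9 genes 6 passed, where 27.8% of all genes did, 14.4% higher and 13.4% lower. In 5' reads the same 6 passed, against 27.3%. Zp3, Bmp15, Oosp1, Oosp2 and Oosp3 were lower and Astl was higher. Oosp3 had the most negative log2 fold change, at -2.41 ± 0.41 (5.32-fold lower, adjusted p = 4.35e-05), and no double-LOF embryo reached the lowest SRF-LOF embryo. Oosp1 was lower by -1.09 ± 0.32 (adjusted p = 0.0100), and 9 of 10 double-LOF embryos lay below every SRF-LOF embryo. The Astl value, 0.91 ± 0.35, sat near the threshold (adjusted p = 0.0462) and did not pass in 13 of 35 fits with 1 library left out. Without the 3 libraries 4 genes passed, with Zp3 and Astl no longer among them, where 43.0% of all genes did. On the ERCC scale 3 passed, and Zp3, Bmp15 and Oosp1 did not, where 18.8% of all genes did. Scaled to the other maternal transcripts 5 passed, with Zp1, Zp2, Astl and Gdf9 higher and Oosp3 lower, where 48.8% of all genes did. The tally of 1 higher and 5 lower then became 4 higher and 1 lower, and the median of all genes moved by 1.23 on the log2 scale. The interaction, the double-LOF minus DUX-LOF difference less the SRF-LOF minus control difference, was called for 0 of 9 genes by edgeR and by DESeq2, with 1 at an unadjusted p under 0.05 (Oosp2, -0.97 ± 0.47, adjusted p = 0.710). Of all genes 0.00% passed with either tool and in 5' reads, and 6.94% at an unadjusted p under 0.05. Without the 3 libraries it was called for Zp3 (1.82, adjusted p = 0.0241), in a fit in which 8.72% of all genes passed. That call rests on leaving out the 2 SRF-LOF embryos high in Zp3, which were set apart partly by expression.

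These values are relative to all gene counts of an embryo, and the scale matters for this set. Scaled to the summed counts of the 46 other maternal transcripts, the median of all genes moved by 0.73 in DUX-LOF and by 0.62 in double-LOF on the log2 scale, so that values read relative to that shift. On that scale Zp3 was still called lower than control in both (-1.75 and -1.91, adjusted p = 0.0228 and 0.0119), and Oosp3 in double-LOF (-1.76, adjusted p = 0.00263), while Gdf9 was higher (0.90 in DUX-LOF and 1.28 in double-LOF, adjusted p = 0.00422 and 0.000123). Zp2 was then higher in both (0.76 and 0.72, adjusted p = 0.0356 and 0.0481), against -0.10 and 0.08 as reported. Bmp15 and Oosp2 then had positive log2 fold changes that did not pass (0.35 and 0.03 in double-LOF). Ratios between 2 genes of the same embryo need no scale. Per 100 Bmp15 counts, Zp3 counts had a median of 27.1 in controls (4.98 to 138), 8.11 in DUX-LOF (2.32 to 21.9), 4.80 in double-LOF (1.57 to 36.0) and 2.75 in SRF-LOF (1.64 to 59.2). Per 100 Gdf9 counts, Oosp3 counts had a median of 84.3 in controls (38.4 to 257), 62.1 in SRF-LOF embryos (21.7 to 93.6), 25.4 with the DUX ASO alone (3.98 to 93.0) and 9.97 in double-LOF (3.26 to 26.2). By this last ratio no double-LOF embryo overlapped the controls. Oosp3 alone already lay below every control in double-LOF, and Gdf9 had a log2 fold change of 0.72 there that did not pass. A higher denominator lowers the ratio, so this separation is no separate support for the fall of Oosp3. Zp3 and Bmp15 ran opposite to each other (r = -0.579 after removal of group means), which spreads their ratio. Only these ratios were taken, and the share of other gene pairs that separate was not counted.

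**Figure D3:**
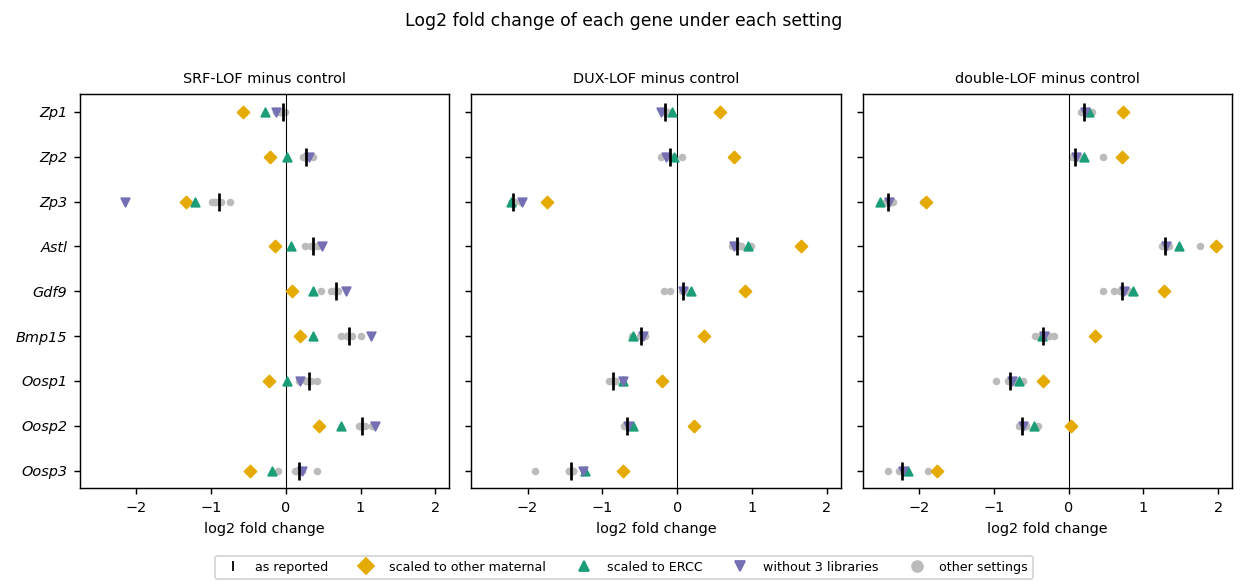
Log2 fold change of each gene against control (x axis) as reported and under each of 11 alternative settings, in SRF-LOF, DUX-LOF and double-LOF embryos. Scaling to the other maternal transcripts (diamonds) lies to the right of the reported value in DUX-LOF and double-LOF and to the left in SRF-LOF, and Zp3 stays below 0 under every setting shown.

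Among themselves the 9 genes did not behave as 1 block from embryo to embryo. After removal of group means, Gdf9 and Bmp15 had the highest correlation of any pair (Pearson's r = 0.615 over 35 embryos, as a description), and Zp3 and Bmp15 the lowest (r = -0.579). Each gene was therefore set against the mean log2(CPM + 1) of the 46 other maternal transcripts within control, DUX-LOF and double-LOF embryos, 27 relations in all, with permutation tests; the relations and their alternatives were chosen after seeing the data. The SRF-LOF embryos fall into 2 clusters and were left out. Both sides share an embryo's library and scale.

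In control embryos Zp3 ran opposite to the other maternal transcripts (r = -0.926, exact permutation p = 0.000278, adjusted 0.00751; Spearman's rho = -0.933, exact permutation p = 0.00075, adjusted 0.0101; n = 9). Without the 2 embryos farthest from the median r was -0.91 (exact permutation p = 0.00278), and in 5' reads it was -0.864. On the ERCC scale the relation was gone (r = 0.16, exact permutation p adjusted 0.698). In DUX-LOF and double-LOF embryos r was -0.255 and -0.296 and did not pass. In double-LOF the sign was not stable, with rho = 0.224, r = 0.138 without the 2 farthest embryos and r = 0.178 in 5' reads.

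Gdf9, Bmp15 and Zp2 ran with the other maternal transcripts in controls. For Zp2 r was 0.849 (exact permutation p = 0.00404, adjusted 0.0273; rho = 0.80, exact permutation p = 0.0138, adjusted 0.0747) and, without the 2 farthest embryos, 0.785 (exact permutation p = 0.0323). Without the 2 farthest it was 0.72 in 5' reads, 0.622 on the ERCC scale and 0.676 with DESeq2's size factors. These did not pass (exact permutation p = 0.0657, 0.146 and 0.0964), while with scaling from genes and repeats it was 0.774 (exact permutation p = 0.0395). For Bmp15 r was 0.832 (exact permutation p = 0.00613, adjusted 0.0285; rho = 0.95, exact permutation p = 0.000353, adjusted 0.00952) and for Gdf9 0.822 (exact permutation p = 0.00672, adjusted 0.0285; rho = 0.667, exact permutation p = 0.0589, adjusted 0.199). Without the 2 farthest embryos r was 0.61 and 0.611 and did not pass (exact permutation p = 0.147 and 0.144). In 5' reads it was then 0.85 and 0.878 (exact permutation p = 0.021 and 0.026) and on the ERCC scale 0.919 and 0.902 (exact permutation p = 0.00437 and 0.00893), so in those settings the relations did not rest on these embryos.

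In DUX-LOF embryos Gdf9 kept this relation (r = 0.895, exact permutation p = 0.000631, adjusted 0.00852; rho = 0.917, exact permutation p = 0.00131, adjusted 0.0118), also without the 2 farthest embryos (r = 0.923). Without the 2 farthest it was 0.77 in 5' reads and 0.796 on the ERCC scale and did not pass (exact permutation p = 0.0522 and 0.0589). With DESeq2's size factors and with scaling from genes and repeats it passed (0.897 and 0.851, exact permutation p = 0.00456 and 0.00913). For Bmp15 r was 0.816 (exact permutation p = 0.00355, adjusted 0.0273; rho = 0.717, exact permutation p = 0.0369, adjusted 0.166), and 0.56 without those embryos (exact permutation p = 0.195), against 0.822 on the ERCC scale (exact permutation p = 0.0123) and 0.757 in 5' reads (exact permutation p = 0.0573). In the 10 double-LOF embryos r was 0.799 for Gdf9 (permutation p = 0.00739, adjusted 0.0285; rho = 0.842, permutation p = 0.00397, adjusted 0.0268) and 0.829 for Zp2 (permutation p = 0.0137, adjusted 0.0461; rho = 0.539, permutation p = 0.115, adjusted 0.258). Without the 2 farthest embryos these were 0.649 and 0.29 and did not pass (exact permutation p = 0.0746 and 0.485), and in 5' reads 0.725 and 0.962 (exact permutation p = 0.0392 and 0.000298). On the ERCC scale they were then 0.731 and 0.584 (exact permutation p = 0.0364 and 0.137), so Zp2 did not pass there. The other 19 of the 27 relations did not pass, those of Zp1, Astl and all 3 Oosp genes among them.

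How many relations passed moved with the setting, from 8 as reported to 12 in 5' reads and 19 on the ERCC scale, all positive there. In 5' reads Astl and Oosp1 passed in double-LOF (adjusted permutation p = 0.0164 and 0.0472). On the ERCC scale Zp1, Astl, Oosp1, Oosp2 and Oosp3 each passed in at least 1 group, so passing on that scale sets no gene apart.

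**Figure D4:**
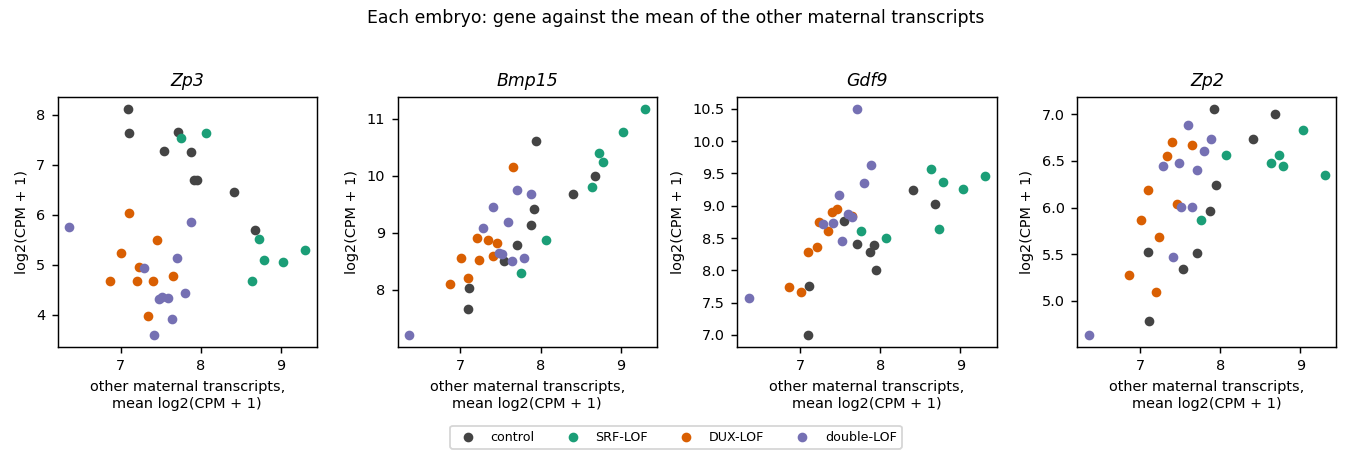
Each embryo's log2(CPM + 1) of Zp3, Bmp15, Gdf9 and Zp2 (y axis) against the mean log2(CPM + 1) of the 45 other maternal transcripts tested (x axis), coloured by group. The correlations in the text use the mean of all 46. Over the 9 controls Zp3 slopes down (r = -0.926) and Bmp15, Gdf9 and Zp2 slope up.

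The other maternal oocyte transcripts, among them Nlrp5, Zar1 and Btg4, gave the setting for these levels: 45 of 46 were tested. DUX-LOF embryos had 16 that fell and 0 that rose, double-LOF embryos 10 that fell and 1 that rose, and SRF-LOF embryos 6 that rose and 0 that fell, with median log2 fold changes of -0.62, -0.37 and 0.84. Of all genes tested 17.2%, 19.6% and 1.78% passed in DUX-LOF, double-LOF and SRF-LOF. Without the 3 libraries 22 rose in SRF-LOF, where 34.1% of all genes passed, and the counts of the other 2 comparisons were the same. The 6 rises in SRF-LOF were all lost, with 0 called, under ERCC scaling, with only the groups compared and with the replicate block. DESeq2 called 15, where 7.31% of all genes passed. Single libraries left out gave 1 to 18, where 8 to 1789 of all genes passed. With ERCC scaling 4 fell in DUX-LOF and 3 in double-LOF, where 6.80% and 10.1% of all genes passed. In DUX-LOF the largest falls were in Rfpl4 (-2.03 ± 0.41), E330034G19Rik (-2.01 ± 0.40), Nlrp4f (-1.87 ± 0.38) and H1foo, the oocyte linker histone (-1.61 ± 0.49). In double-LOF they were in Dppa3, a maternal protector of methylation (-1.94 ± 0.26), E330034G19Rik (-1.86 ± 0.38) and Rfpl4 (-1.82 ± 0.39), while Plat, tissue plasminogen activator, rose (1.44 ± 0.42). As reported, Oas1d (2.37 ± 0.40), Oas1h (1.90 ± 0.50), Oog4 (1.83 ± 0.46) and Rfpl4 (1.66 ± 0.42) rose in SRF-LOF. Of 8 late 2-cell genes, which the embryo itself transcribes, 7 fell in DUX-LOF and 4 in double-LOF, led by Zscan4f (-4.37 ± 0.68 and -3.62 ± 0.63), with 0 called in SRF-LOF by edgeR (1 rose without the 3 libraries). With ERCC scaling 5 and 2 fell. The Zscan4 copies are near-identical, so single values are uncertain.

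Of 8 oocyte transcription factors 5 were tested. In SRF-LOF edgeR called 0, where 1.78% of all genes passed. Without the 3 libraries 2 rose and 1 fell, where 34.1% of all genes passed. In DUX-LOF Nobox, known to act on Gdf9 and Bmp15 in the oocyte, fell (-1.84 ± 0.63) and Foxo3, a brake on follicle activation, rose (0.80 ± 0.23). In double-LOF Lhx8 fell (-0.97 ± 0.35) and Foxo3 rose (0.86 ± 0.23). Of all genes 17.2% passed in DUX-LOF and 19.6% in double-LOF. With ERCC scaling 1 fell in DUX-LOF and 0 were called in double-LOF, where 6.80% and 10.1% of all genes passed. Of the genes of the egg surface and of secretion 11 of 14 were tested, and the 2 of 11 called in DUX-LOF lie close to the share of all genes. In DUX-LOF 2 rose and 0 fell: Furin, a proprotein convertase (1.43 ± 0.41), and Itga6, an integrin of the egg membrane (1.08 ± 0.30). In double-LOF 3 rose and 3 fell, among them Furin (1.94 ± 0.41) and Itga6 (1.33 ± 0.29) upward and Cd9, needed on the egg for sperm fusion (-1.58 ± 0.49), and Snap23, a fusion protein of exocytosis (-0.90 ± 0.31), downward. Of all genes 19.6% passed in double-LOF. In SRF-LOF, where 1.78% of all genes passed, 1 rose and 0 fell, Nsf, which recycles fusion complexes (1.38 ± 0.34). Without the 3 libraries 5 rose and 2 fell of 12 tested, where 34.1% of all genes passed. With ERCC scaling 1 rose in DUX-LOF (6.80% of all genes passed), 2 rose in double-LOF (10.1%) and no other call was made in this list against control.

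On the receiving side of GDF9 and BMP15, 12 of 14 receptor, SMAD and regulator genes were tested. In double-LOF 3 rose and 0 fell, among them Smad2 (1.04 ± 0.35) and Smad4, the shared SMAD (0.99 ± 0.28). That count lies close to the share of all genes, 19.6%. The share was 17.2% in DUX-LOF and 1.78% in SRF-LOF. In DUX-LOF 1 rose (Smad4, 0.80 ± 0.28). In SRF-LOF 1 fell, the receptor gene Bmpr1a (-2.54 ± 0.65). Without the 3 libraries 2 rose and 2 fell, close to the 34.1% of all genes that passed in that fit. With ERCC scaling 2 rose in double-LOF, where 10.1% of all genes passed, and 0 were called in the other 2 groups. The median log2 fold change of the 12 genes was 0.33, 0.31 and 0.39 for SRF-LOF, DUX-LOF and double-LOF, beside -0.10, -0.08 and -0.08 over all genes. All genes named from these lists were called by edgeR's quasi-likelihood test at the same threshold.

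Over the 35 embryos, the protein-coding genes whose levels went most closely with the mean of the 9 genes, after removal of group means, were Cdo1 (r = 0.796), Msl3 (0.737), Bach2 (0.736), Cd300lf (0.735) and Tcl1b4 (0.732), out of 8713 genes ranked. These are descriptions, and the embryos share library and scale on both sides.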

How the data were processed

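The authors deposited 2 count files for each of 35 embryos, of internal reads and of 5' reads. As deposited, internal values are unnormalized whole counts per gene; the deposited 5' values, entered here as estimated counts, are whole numbers too and needed no rounding. The submitters' processing notes name STAR 2.7.11a and GRCm38. The counter, annotation release, use of strand and treatment of multiple alignments are not given in the sources used here. Each file holds 54838 gene, 1395 repeat and 92 ERCC rows. GENCODE M21 named 54809 gene IDs, version ignored, and all 9 genes described.

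Library sizes and TMM factors came from gene rows. After filterByExpr 11940 genes remained (11749 in 5' reads). All 4 groups entered 1 fit of edgeR 4.0.16 (limma 3.58.1, R 4.3.3), with repeats fitted beside genes and p-values adjusted over genes. The fit was tested on simulated data. Standard errors are the log2 fold change divided by the root of F. The alternatives were DESeq2 1.42.0, its size factors, no filter, scaling from genes and repeats, to ERCC or to other maternal transcripts, a fit of just the groups contrasted, a block for replicate number, 5' reads, libraries under 0.25 of the median depth left out, 3 doubtful libraries left out, and each library left out. Named genes are the 9, up to 4 called genes per list and comparison with a mean of at least 10 CPM, and the 5 most alike. Members and lists were chosen with earlier results of these data known. The labels do not say that replicate numbers pair embryos, so the numbers entered only as the block in 1 alternative.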

Additional observations from a re-analysis of the deposited data

Results flagged for a closer look

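Of 36 combinations of gene and group, 5 held 1 embryo far above the rest of its group by Dixon's gap test at the 95% level. Its chance rate of about 1 of 20 holds for normal values. Here CPM were used without a log and all 5 flags were on the high side, so that rate cannot be set against the 5. For Astl the flagged embryos were SRF-LOF 9 at 62.0 CPM, where the next embryo had 28.1 CPM, and double-LOF 5 at 109 CPM, where the next had 59.2. For Gdf9 it was double-LOF 6, the shallowest library, at 1452 CPM, with the next at 788. For Bmp15 it was DUX-LOF 4 at 1137 CPM, with the next at 479. For Oosp1 it was double-LOF 9 at 2578 CPM, with the next at 915.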

How the results depend on the processing

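The falls of Zp3 and Oosp3 and the rise of Astl in double-LOF, and the fall of Zp3 in DUX-LOF, kept their direction and their call under all 11 alternatives; of the other results some moved. Of the 9 genes, DESeq2 called 1 in SRF-LOF and 5 in double-LOF against control, where 7.31% and 23.2% of all genes passed. ERCC scaling left 1 in DUX-LOF (6.80%) and 3 in double-LOF against SRF-LOF (18.8%), and scaling to the other maternal transcripts gave 5 in double-LOF (21.9%). Without SRF-LOF 3, SRF-LOF 8 and DUX-LOF 10 there were 3 in SRF-LOF (34.1%) and 1 in the interaction (8.72%).

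Among values that changed sign, Bmp15 in double-LOF against SRF-LOF and the Zp3 correlation had been called and the others had not. With ERCC scaling the log2 fold changes with another sign were Oosp3 in SRF-LOF (-0.178) and Zp2 in double-LOF against SRF-LOF (0.188), and the correlation of Zp3 with other maternal transcripts in controls (r = 0.16). With scaling to the other maternal transcripts they were Zp2, Astl, Oosp1 and Oosp3 in SRF-LOF (-0.211, -0.146, -0.227 and -0.481), Zp1, Zp2, Bmp15 and Oosp2 in DUX-LOF (0.576, 0.764, 0.363 and 0.223), Bmp15 and Oosp2 in double-LOF (0.346 and 0.029), and Zp2 and Bmp15 in double-LOF against SRF-LOF (0.928 and 0.152). In 5' reads they were Gdf9 in DUX-LOF (-0.103) and Zp2 in double-LOF against SRF-LOF (0.094). Gdf9 in double-LOF against SRF-LOF was -0.21 without shallow libraries and -0.067 without the 3 named. Scaling moved the median of all genes by -0.367 (ERCC) and -0.623 (maternal) in SRF-LOF, by 0.733 and 0.62 (maternal) in DUX-LOF and double-LOF, and by 0.395 and 1.233 in double-LOF against SRF-LOF. Other causes were not tested, and the alternatives for correlations and for the other gene lists were chosen after seeing the data.

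With each library left out, 0 to 2 genes were called in SRF-LOF (2 without SRF-LOF 3), 2 to 3 in DUX-LOF, 3 to 4 in double-LOF, 4 to 6 in double-LOF against SRF-LOF and 0 in the other 2 comparisons. Without SRF-LOF 3, 1789 of all 12238 genes tested passed in SRF-LOF, against 212 of 11940 as reported. For the other comparisons the shares of all genes in these fits are not given here. Over these fits Zp1 and Oosp3 in SRF-LOF ran from -0.12 to 0.099 and from -0.01 to 0.309, Zp2 and Gdf9 in DUX-LOF from -0.193 to 0.073 and from -0.02 to 0.229, Zp2 in double-LOF from -0.017 to 0.249, and Gdf9 in double-LOF against SRF-LOF from -0.21 to 0.203. With replicate number as a block, 2 genes were called in DUX-LOF (12.9% of all genes), 4 in double-LOF (16.8%), 5 in double-LOF against SRF-LOF (21.9%) and 0 in the other 3 comparisons (at most 0.0251%), and Oosp3 in SRF-LOF (-0.103) and Zp2 and Gdf9 in DUX-LOF (0.063 and -0.175) changed sign. Same-numbered embryos of different groups had a mean correlation of 0.041 over 41 pairs, 15 of them above 0.1. Other pairs of embryos across groups had -0.005 over 416 pairs, 112 of them above 0.1. Of 35 embryos 7 correlated best with one of their own number. Whether a shared number marks a shared batch was not tested.

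Over all genes, 212 passed in SRF-LOF, 139 of them higher, against 873 with DESeq2, 123 without a filter, 1 with ERCC scaling or only the groups compared, 21 with maternal scaling (3 higher), 3 with the block, 4256 without the 3 libraries and 8 to 1789 with each library left out. In DUX-LOF 2056 passed (1059 higher), against 847 with ERCC (540 higher) and 3177 with maternal scaling (3025 higher). In double-LOF 2344 passed (1160 higher), against 1261 (744 higher) and 2803 (2623 higher), and in double-LOF against SRF-LOF 3318 (1724 higher), against 2344 (1899 higher), 6234 (6101 higher) and, without the 3 libraries, 5363 (3434 higher). The interaction had 0, against 1088 without them; a fit of only the groups compared was not run for it. Depth limits Astl and Oosp2 most, with 12 to 113 and 2 to 72 internal counts per embryo.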
